A study of Salmo salar with 13 samples.

Results

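The comparison set 4 libraries of Atlantic salmon prepared for the sea and then moved there, SPLL SW, against 4 libraries of fish kept in freshwater under short days, SP-hold FW, 8 of the 13 libraries of the series. Libraries were assigned to the groups by their labels. All are RNA sequencing of the saccus vasculosus (SV), the vascular sac under the hypothalamus of many fishes.

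All fish were Atlantic salmon of a commercial strain, 11 months old when the photoperiod treatments began, and their sex was not determined. SPLL SW fish had 8 weeks of short photoperiod (8 h of light per day), then 8 weeks of constant light (LL), then 24 h in seawater (SW) at 34‰. SP-hold FW fish had 16 weeks of the same short photoperiod and were sampled in freshwater (FW). The other groups were SPLL FW (2 libraries, the photoperiod of SPLL SW without the transfer) and SP-hold SW (3 libraries, 16 weeks of short photoperiod and then 24 h in SW). The seawater tank was lit without interruption, and fish in freshwater were sampled before the transfer. SPLL SW and SP-hold FW differ in photoperiod history, in salinity, in the light of the last day and in the move to another tank. These cannot be told apart within this pair. Fish came from 2 duplicate tanks, with 2 fish per tank, and libraries are not assigned to tanks here, so p-values that treat the libraries of a group as independent may be too small.

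Smoltification is the change by which a juvenile freshwater salmon, the parr, becomes a smolt able to live in seawater, and increasing day length drives it. Cortisol rises in salmon during this change and on entry into seawater, and it acts through glucocorticoid receptors, which switch on genes such as fkbp5 and klf9. The SV is an outgrowth of the wall of the third ventricle. Its epithelium holds coronet cells, whose globules reach into the cerebrospinal fluid, and supporting glia, over a dense bed of blood vessels. It has been linked to the composition of that fluid and to the sensing of day length.

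Values are estimated reads per transcript as CPM, read counts set to a common library total and scaled by TMM, a factor per library that evens out the bulk of transcripts. Changes are log2 fold changes, SPLL SW over SP-hold FW, with a standard error (SE), from an edgeR quasi-likelihood fit of the 4 groups, and FDR is the Benjamini-Hochberg adjusted p of that fit over all transcripts tested. Assigned reads ranged from 22239063 to 24001266 in SPLL SW and from 15346418 to 22430760 in SP-hold FW. In bulk tissue, fewer cells of a type and less RNA per cell cannot be told apart.

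Of 46383 transcripts tested, 42 passed an FDR of 0.05, which is 0.0906%. Of these, 23 were higher in SPLL SW (0.0496%) and 19 lower (0.041%). At an unadjusted p under 0.05, 1857 were higher (4.0%) and 2038 lower (4.39%), and DESeq2 called 461 higher (0.994%) and 518 lower (1.12%), all 42 among them. With the 8 libraries alone edgeR called 0 (1675 higher and 1628 lower at an unadjusted p under 0.05), and likewise 0 with a replicate block (1820 higher and 2036 lower). On a single set of simulated counts DESeq2 called more unchanged transcripts than edgeR did. Those counts were drawn from edgeR's own estimates of the spread, so they cannot decide between the tests. In each of the 42 the 4 SPLL SW libraries and the 4 SP-hold FW libraries did not overlap, as was so for 3349 transcripts in all (7.22%), 1605 higher (3.46%) and 1744 lower (3.76%). Of the 42, 23 carry a gene name, 14 higher and 9 lower, from 21 genes. All 23 belong to the 334 transcripts that the study selected for differing among its 4 groups in these same libraries, so that none of them is independent of that selection. Of the transcripts tested, 1273 carry a name, and 0 of the 988 named transcripts outside that selection passed in edgeR. Among these 988, 137 were higher and 37 lower at an unadjusted p under 0.05, DESeq2 called 27 higher and 9 lower, and voom called 0 higher and 1 lower.

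**Figure D1:**
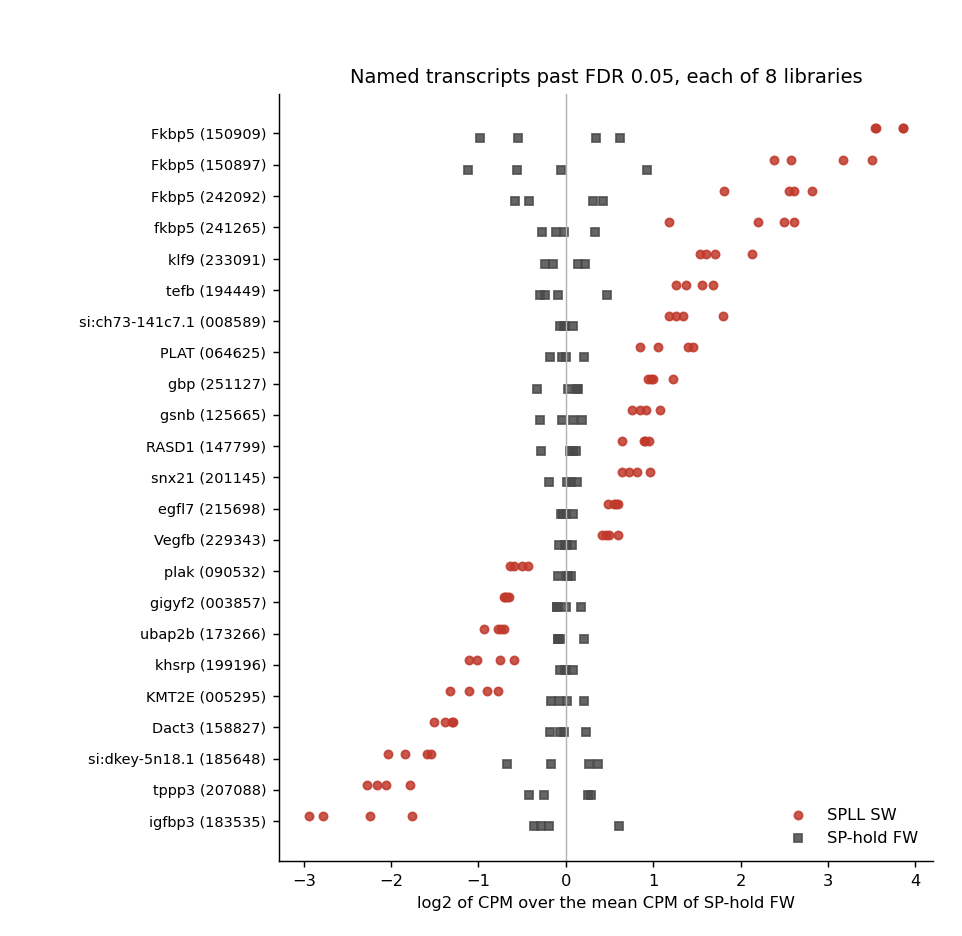
Each of the 23 named transcripts past an FDR of 0.05, as log2 of the CPM of a library over the mean CPM of SP-hold FW, with the last 6 digits of its identifier. Circles are the 4 SPLL SW libraries and squares the 4 SP-hold FW libraries. No SPLL SW library lies among the SP-hold FW libraries for any of the 23.

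SPLL SW replicate 3 stood apart before any comparison. Only 54196 transcripts had any read in it, while replicates 1, 2 and 4 of SPLL SW had 68158 to 69054 and SP-hold FW libraries 64926 to 68275. Its long transcripts were low relative to its short ones, with a median difference of -0.60 (log2, the longest minus the shortest of 4 equal bins of transcripts by length), against -0.0009 to 0.084 in the other SPLL SW libraries and -0.092 to 0.26 in SP-hold FW. Over all tested transcripts the median log2 fold change was 0.11 in the bin of shortest transcripts and -0.13 in that of the longest, and 0.03 and -0.05 without this library. The 15 erythrocyte marker transcripts, all of hemoglobin chains, held 11.4% of TPM, the read share corrected for transcript length, in SPLL SW replicate 3, and 9.58%, 5.88% and 4.59% in SPLL SW replicates 1, 2 and 4. In SP-hold FW they held 3.86% to 5.44%, and the groups overlapped. All 15 had a log2 fold change above 0, with a median of 0.80, and of 0.35 without SPLL SW replicate 3, and 0 passed in edgeR, DESeq2 or voom or had an unadjusted p under 0.05. Of the 1273 transcripts tested that carry a name, 847 were above 0.

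**Figure D2:**
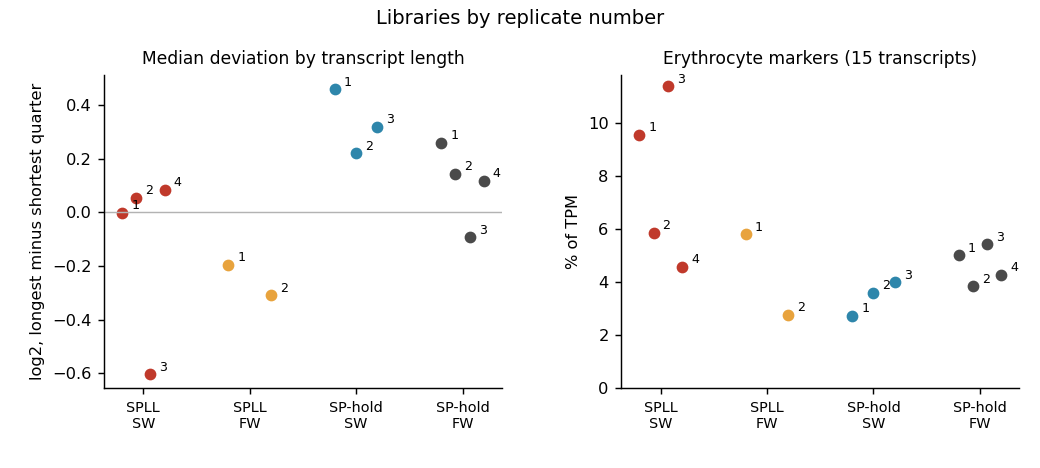
Left, the median log2 deviation of the longest of 4 equal bins of transcripts by length minus that of the shortest, per library. Right, the share of TPM of 15 erythrocyte marker transcripts. Numbers are replicates. SPLL SW replicate 3 has the lowest value on the left (-0.60) and the highest on the right (11.4%).

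Markers of the SV itself were present in every library. The 6 SV and coronet cell markers, ependymins and parvalbumin, held 7.55% to 11.0% of TPM in SPLL SW and 6.13% to 9.08% in SP-hold FW. Glia and tanycyte markers held 0.812% to 1.22% in SPLL SW and 0.588% to 0.817% in SP-hold FW, neuron markers 0.0712% to 0.109% and 0.0568% to 0.0868%, and endothelium markers 0.00388% to 0.00797% and 0.00501% to 0.00728%. Each of these ranges overlapped between the groups. For glia and tanycyte markers only SPLL SW replicate 1, at 0.812%, overlapped SP-hold FW. Their means were 0.987% in SPLL SW and 0.73% in SP-hold FW. A summed share can also hide opposite changes of its members. Of 9 neuron markers, 4 were higher and 3 lower at an unadjusted edgeR p under 0.05, and DESeq2 called 0 higher and 2 lower. Of 8 glia and tanycyte markers, 2 were higher and 1 lower, and DESeq2 called 1 higher and 0 lower. In edgeR 0 of these neuron, glia and tanycyte markers passed the FDR threshold. Growth hormone, gh1, a product of the neighbouring pituitary, had 33.6, 277, 150 and 6.54 CPM in SPLL SW and 8.76, 11.5, 4.93 and 2.96 CPM in SP-hold FW (log2 fold change 4.05, FDR 0.378). DESeq2 called gh1 higher and voom did not. The groups overlapped, and the part of pituitary RNA in any result was not tested. The 2 macrophage and lymphocyte markers held 0.135% to 0.335% of TPM in SPLL SW and 0.213% to 0.308% in SP-hold FW. Of these 2, 0 passed in edgeR, and DESeq2 called 1 lower, at -0.75 and without overlap of libraries. The other had 0.08.

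Genes known to answer to glucocorticoids held more of the calls than any other list used, and all of these were higher in SPLL SW. Fkbp5 encodes a cochaperone that binds the glucocorticoid receptor complex and lowers its affinity for the hormone, and the receptor switches its gene on, so that it works as a feedback brake. Atlantic salmon carry copies on chromosome 12 (57656136 to 57708497 of Ssal_v3.1, named by its mouse match) and chromosome 22 (38007370 to 38014874). All 4 tested transcripts that carry the name of these copies were higher in SPLL SW. All 4 belong to the study's selection, and transcripts of these copies without a name could not be counted.

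ENSSSAT00000150909 of the chromosome 12 copy had 11.0, 11.0, 8.82 and 8.76 CPM in SPLL SW, against 0.959, 0.517, 0.383 and 1.16 CPM in SP-hold FW. The lowest SPLL SW library lay far above the highest SP-hold FW library, and the log2 fold change was 3.71 (SE 0.41, FDR 0.0158), or 13.1-fold. ENSSSAT00000150897 of the same copy had 8.96, 17, 7.85 and 13.5 CPM in SPLL SW, against 1.02, 0.689, 1.44 and 2.85 CPM in SP-hold FW (2.98, SE 0.43, FDR 0.0413). ENSSSAT00000242092 rose by 2.48 (SE 0.36, FDR 0.0413), with 2.69 to 5.41 CPM in SPLL SW and 0.512 to 1.03 CPM in SP-hold FW. Reads of 1 locus are shared out among its transcripts by estimation, and the sum of the 3 does not depend on the split among these 3. It can still depend on reads shared with transcripts that have no name or were not tested. The sum was 25.4, 32.6, 19.4 and 27 CPM in SPLL SW and 2.49, 2.24, 2.4 and 4.96 CPM in SP-hold FW, a ratio of means of 8.63.

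The chromosome 22 transcript, ENSSSAT00000241265, had 9.87, 13.1, 4.84 and 12.1 CPM in SPLL SW, against 1.98, 1.77, 2.11 and 2.69 CPM in SP-hold FW. Replicate 3 was the lowest of SPLL SW and still above all of SP-hold FW, and the transcript rose by 2.22 (SE 0.30, FDR 0.0301).

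The other 2 groups share either the photoperiod of SPLL SW or its transfer. Over all transcripts, 42 passed for SPLL FW over SP-hold FW (0.0906%), 39 for SP-hold SW over SP-hold FW (0.0841%), 125 for SPLL SW over SPLL FW (0.269%) and 1411 for SPLL SW over SP-hold SW (3.04%). In SP-hold SW, ENSSSAT00000150909 had 35.9, 14.5 and 17.4 CPM, above all SPLL SW libraries, and in SPLL FW it had 5.36 and 5.27 CPM, between the groups compared. SP-hold SW over SP-hold FW gave 4.90 (FDR 0.00218) and SPLL FW over SP-hold FW gave 2.81 (FDR 0.0558). SPLL SW over SPLL FW gave 0.90 (FDR 0.554), and SPLL SW over SP-hold SW gave -1.19 (FDR 0.12). The effect of the SW transfer in SPLL fish minus that in SP-hold fish was -4.0 (SE 0.58, FDR 0.0292), in a test that 105 transcripts passed (0.226%). For SP-hold fish, but not for SPLL fish, the transfer was also a change from short days to constant light. The chromosome 22 transcript had 21.1, 15.9 and 17.3 CPM in SP-hold SW and 4.36 and 3.27 CPM in SPLL FW, with 3.08 for SP-hold SW over SP-hold FW (FDR 0.00571) and 0.83 for SPLL FW over SP-hold FW (FDR 0.534). These contrasts share libraries with each other and with the pair compared.

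klf9, a zinc finger transcription factor gene that the glucocorticoid receptor induces directly, had 9.87, 11.1, 14.9 and 10.4 CPM in SPLL SW, against 2.88, 3.75, 3.07 and 3.96 CPM in SP-hold FW. It lies on chromosome 24 (28216774 to 28234296), and it rose by 1.76 (SE 0.22, FDR 0.0226). SP-hold SW libraries, at 7.89 to 11.4 CPM, overlapped those of SPLL SW, and SPLL FW libraries, at 4.31 and 6.22 CPM, lay above those of SP-hold FW. RASD1 encodes a small G protein of the Ras family, first found as a gene induced by dexamethasone. It had 75.7, 63.0, 75 and 78.1 CPM in SPLL SW, against 33.2, 41.8, 43.8 and 42.5 CPM in SP-hold FW (0.85, SE 0.11, FDR 0.0285). Its SPLL FW libraries, at 63.1 and 80.7 CPM, lay at both ends of the range of SPLL SW, and SP-hold SW libraries had 60.7 to 63.0 CPM.

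Of 10 tested transcripts on the glucocorticoid response list, 6 were higher and 0 lower, and the median log2 fold change was 1.85, against -0.02 over all transcripts tested. The 6 calls became 0 with the 8 libraries alone or with the replicate block, and 1 with no filter on low counts. Outside these 6, TSC22D3, the glucocorticoid-induced leucine zipper, had 106 to 133 CPM in SPLL SW and 51.1 to 68.5 CPM in SP-hold FW (0.94, FDR 0.0766), and foxo1a, a forkhead transcription factor, had a log2 fold change of 0.57 (FDR 0.209). lpin1a, a phosphatidate phosphatase of fat metabolism, had 1.95 (FDR 0.340) with overlapping libraries. The remaining member, pik3ip1, an inhibitor of PI3 kinase, had -0.01. 9 of the 10 come from the study's own selection, and 4 of the 6 calls are fkbp5 transcripts, 3 of them from 1 locus.

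**Figure D3:**
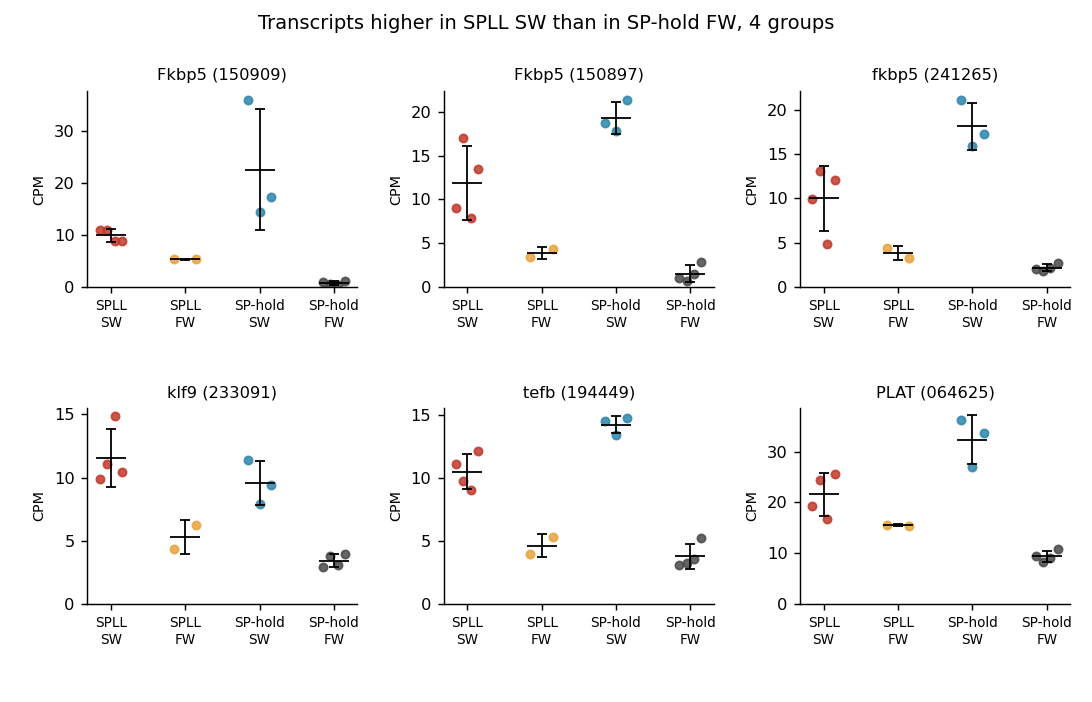
CPM of 6 transcripts in each library of the 4 groups (points), with the mean and SD (bars). For both Fkbp5 transcripts, fkbp5, tefb and PLAT the SP-hold SW mean lies above that of SPLL SW, and for klf9 below it.

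Most of these calls were lost when 1 library was left out. Of the 6, only ENSSSAT00000150909 kept its call without any 1 of the 13 libraries (FDR up to 0.0406, without SP-hold FW replicate 2). klf9 lost it when SP-hold FW replicate 1, 2 or 3 was dropped (FDR up to 0.0573). RASD1 lost it without any 1 of SP-hold FW 2 and 4, SP-hold SW 2 and 3, and SPLL SW 1 and 4 (FDR up to 0.0822), and the chromosome 22 transcript on dropping any 1 of these or SP-hold FW 1 or 3 (FDR up to 0.103). ENSSSAT00000150897 kept it only without SP-hold FW 4 or SPLL SW 3 (FDR up to 0.132 otherwise), and ENSSSAT00000242092 only without SPLL SW 3, SPLL FW 1 or SPLL FW 2 (FDR up to 0.117 otherwise). Of the list, 1 member remained past the threshold without SP-hold FW 2, 2 without SP-hold FW 1, SP-hold FW 3, SP-hold SW 2, SP-hold SW 3, SPLL SW 1 or SPLL SW 4, 3 without SP-hold FW 4 and 4 without SPLL SW 2.

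The vertebrate clock is a loop of transcription factors, entrained by light, in which PAR bZIP factors such as tef carry the rhythm to output genes and cryptochromes and period proteins repress their own transcription. The SV of SPLL SW fish was sampled after constant light and that of SP-hold FW fish under a light and dark cycle. Each group was sampled at a single time, so a change of level cannot be told apart from a shift of the rhythm. Of 12 tested clock transcripts, 1 was higher and 0 lower, with a median log2 fold change of 0.36. Over all transcripts tested 0.0496% were higher and 0.041% lower, with a median of -0.02. The study's own selection supplies 10 of these 12 clock transcripts, and 15 of its 334 transcripts were higher and 9 lower. tefb on chromosome 6 (35625146 to 35629135) had 11.1, 9.73, 8.98 and 12.1 CPM in SPLL SW, against 3.07, 3.19, 3.54 and 5.23 CPM in SP-hold FW (1.48, SE 0.20, FDR 0.0325). All SP-hold SW libraries, at 13.4 to 14.7 CPM, were higher still, and SPLL FW had 3.96 and 5.27 CPM.

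The second tefb copy, on chromosome 3, had 8.71 to 18.2 CPM in SPLL SW and 5.21 to 9.87 CPM in SP-hold FW, and the libraries overlapped (0.76, SE 0.25, FDR 0.393). The CRY1 transcript, a cryptochrome named cry3b in zebrafish, had 50.7, 47.6, 46.4 and 57.6 CPM in SPLL SW, against 17.8, 15.6, 24.8 and 29.8 CPM in SP-hold FW (1.20, SE 0.19, FDR 0.0677). SP-hold SW had 48.9 to 63.0 CPM of it and SPLL FW 19.2 and 23.5 CPM, so that both SW groups lay above both FW groups. nr1d2a, a nuclear receptor that represses clock genes, had 37.7 to 44.8 CPM in SPLL SW and 20.1 to 32.6 CPM in SP-hold FW in ENSSSAT00000210525, without overlap (0.59, FDR 0.253). Its other transcript, ENSSSAT00000052784, overlapped between the groups (0.58, FDR 0.536). per1b, a period gene, had 1.45 to 2.68 CPM and 2.24 to 5.65 CPM in the same order, with overlap (-1.16, FDR 0.391), and the repressor BHLHE40 had -0.09 (FDR 0.938). tefb lost its call when SP-hold FW 1, 2 or 3, any SP-hold SW library, or SPLL SW 1 or 4 was dropped (FDR up to 0.106).

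3 genes of secreted factors of vessels and blood also rose. PLAT encodes tissue plasminogen activator, the protease that starts the breakdown of fibrin and also acts on synapses. It had 19.3, 24.5, 16.8 and 25.6 CPM in SPLL SW, against 9.34, 8.19, 9.01 and 10.8 CPM in SP-hold FW (1.21, SE 0.16, FDR 0.0273). SPLL FW, at 15.6 and 15.3 CPM, lay between the groups and SP-hold SW, at 27 to 36.3 CPM, above both. SP-hold SW over SP-hold FW gave 1.79 (FDR 0.00265) and SPLL FW over SP-hold FW 0.73 (FDR 0.266).

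egfl7, which endothelial cells secrete as they form tubes, had 72.7, 70.6, 71.6 and 67.2 CPM in SPLL SW, against 47.9, 51.0, 46.1 and 47.0 CPM in SP-hold FW (0.55, SE 0.07, FDR 0.0273). Vegfb, a vascular endothelial growth factor gene named by its mouse match, had 67.6, 63.2, 59.8 and 61.7 CPM in SPLL SW, against 42.4, 45.2, 47.1 and 44.5 CPM in SP-hold FW (0.49, SE 0.07, FDR 0.0367). Both changes are small and both groups were tight. SPLL FW, at 40.9 and 43.9 CPM for egfl7 and 36.3 and 40.1 CPM for Vegfb, was lower than SP-hold FW, and SP-hold SW had 48.7 to 58.7 CPM of egfl7 and 42.2 to 47.0 CPM of Vegfb. SPLL SW over SPLL FW gave 0.73 for egfl7 (FDR 0.0126) and 0.72 for Vegfb (FDR 0.0103), and SP-hold SW over SP-hold FW gave 0.17 (FDR 0.534) and -0.01 (FDR 1.0). The other endothelium markers tested were the scavenger receptor gene stab2, at -0.09 (FDR 0.864), and tfpia, a clotting inhibitor gene, at -0.06 (FDR 0.992).

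gsnb, a gelsolin gene matched to zebrafish, encodes a protein that cuts and caps actin filaments. It had 24.6, 27.5, 30.6 and 26.2 CPM in SPLL SW, against 16.5, 15.4, 14.1 and 11.8 CPM in SP-hold FW (0.91, SE 0.12, FDR 0.0288). Photoperiod history separated its libraries in either water, with 31.6 and 30.3 CPM in SPLL FW and 12.5 to 15 CPM in SP-hold SW. SPLL FW over SP-hold FW gave 1.1 (FDR 0.0229) and SPLL SW over SP-hold SW 1.02 (FDR 0.0104), while SPLL SW over SPLL FW gave -0.18 (FDR 0.820). Of the 14 named transcripts that rose, it is the 1 with a higher mean in SPLL FW than in SPLL SW.

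3 other named transcripts rose. gbp, a Frat family gene whose product binds glycogen synthase kinase in Wnt signalling, had 17.3 to 21.1 CPM in SPLL SW and 7.16 to 9.91 CPM in SP-hold FW (1.04, SE 0.13, FDR 0.0226). snx21, a sorting nexin of endosomes, had 18.6 to 23.2 CPM in SPLL SW and 10.4 to 13.0 CPM in SP-hold FW (0.79, SE 0.11, FDR 0.0367). si:ch73-141c7.1, which has only a zebrafish clone name, had 8.75 to 13.4 CPM in SPLL SW and 3.69 to 4.09 CPM in SP-hold FW (1.42, SE 0.18, FDR 0.0226). Its levels split by water, with 10.2 to 12.9 CPM in SP-hold SW and 3.76 and 3.13 CPM in SPLL FW.

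These calls also turned on single libraries. gbp lost it without SP-hold FW 2 or 4 (FDR up to 0.0627), si:ch73-141c7.1 without any 1 of the 4 SP-hold FW libraries (up to 0.0724), and egfl7 without any 1 of those or SPLL SW 1 (up to 0.0869). PLAT lost it when SP-hold FW 1, 2 or 3, SP-hold SW 3 or SPLL SW 4 was dropped (up to 0.0874), and gsnb on dropping any 1 of SP-hold FW 2 to 4, SP-hold SW 2, SPLL FW 1 and SPLL SW 4 (up to 0.0750). snx21 kept it only without SP-hold SW 1, SPLL SW 2 or SPLL SW 3 (up to 0.109 otherwise), and Vegfb only without SPLL SW 3 (up to 0.109 otherwise). The direction was the same in each of these fits.

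Of the 9 named transcripts past the threshold that fell, igfbp3, tppp3 and si:dkey-5n18.1 had the largest changes. si:dkey-5n18.1 on chromosome 3 (61279710 to 61356347) matches mouse C1ql1, which encodes a C1q-like protein that neurons secrete to organise synapses. It had 22, 30.9, 25 and 29.8 CPM in SPLL SW, against 116, 108, 79.8 and 56.5 CPM in SP-hold FW. The SP-hold FW libraries spread widely, and their lowest was still well above SPLL SW (-1.74, SE 0.21, FDR 0.0226). SPLL FW had 87.2 and 89.1 CPM and SP-hold SW 49.8 to 62.7 CPM. SPLL SW over SPLL FW gave -1.71 (FDR 0.0201), and SP-hold SW over SP-hold FW gave -0.66 (FDR 0.356). The copy on chromosome 6, ENSSSAT00000021713, had 36.7 to 57.3 CPM in SPLL SW and 70.8 to 106 CPM in SP-hold FW, without overlap (-0.89, SE 0.16, FDR 0.107).

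igfbp3 encodes a binding protein of insulin-like growth factors. It had 1.41, 0.867, 0.968 and 1.97 CPM in SPLL SW, against 5.18, 5.47, 5.84 and 10.2 CPM in SP-hold FW (-2.35, SE 0.35, FDR 0.0449). This was the largest fall among the named transcripts past the threshold, at low levels, and SP-hold FW replicate 4 was the highest of the 8 libraries. tppp3, which promotes the assembly of tubulin into microtubules, had 4.68, 5.02, 4.3 and 6.09 CPM in SPLL SW, against 24.9, 15.6, 25.6 and 17.6 CPM in SP-hold FW (-2.06, SE 0.28, FDR 0.0301). Dact3, a mouse match to a regulator of Wnt signalling, had 2.64, 3.05, 3.07 and 2.88 CPM in SPLL SW, against 7.16, 7.41, 8.81 and 6.6 CPM in SP-hold FW (-1.36, SE 0.17, FDR 0.0226). In all 3 genes SPLL FW lay within or above the range of SP-hold FW, with 9.12 and 8.26 CPM for igfbp3, 25.4 and 30.7 CPM for tppp3 and 10.2 and 7.97 CPM for Dact3. SPLL SW over SPLL FW gave -2.73 for igfbp3 (FDR 0.0224), -2.48 for tppp3 (FDR 0.0136) and -1.64 for Dact3 (FDR 0.00962). SP-hold SW over SP-hold FW gave -0.77, -0.13 and 0.10 for the same genes (FDR 0.548 or more).

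**Figure D4:**
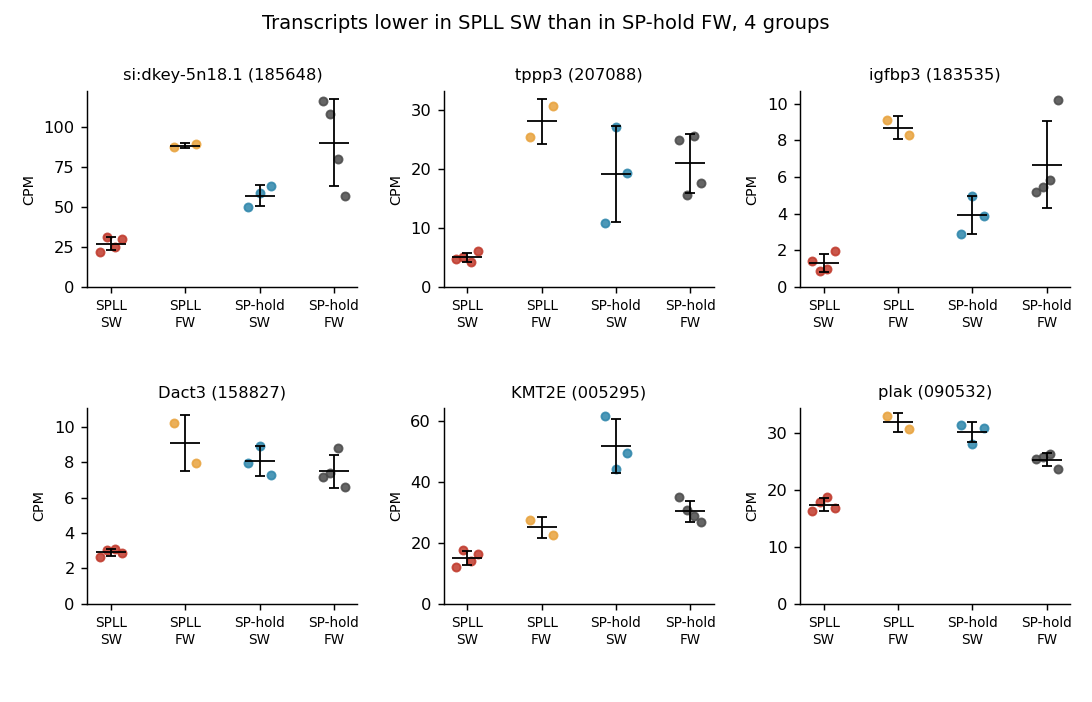
CPM of 6 transcripts that were lower in SPLL SW than in SP-hold FW, in each library of the 4 groups (points), with the mean and SD (bars). The SPLL SW mean is the lowest of the 4 groups in each, and for KMT2E, plak and Dact3 the SP-hold SW mean lies above that of SP-hold FW.

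5 other named transcripts past the threshold fell by less than Dact3. KMT2E, a reader of histone methylation marks, had 12.1, 17.7, 14 and 16.2 CPM in SPLL SW, against 35.0, 30.6, 28.8 and 26.9 CPM in SP-hold FW (-1.01, SE 0.15, FDR 0.0457). khsrp, which binds AU-rich RNA and speeds its decay, had 25.1 to 35.8 CPM in SPLL SW and 51.7 to 57.1 CPM in SP-hold FW (-0.85, SE 0.12, FDR 0.0325). ubap2b, a ubiquitin-associated protein gene, had 11.0 to 12.9 CPM in SPLL SW and 19.8 to 24.4 CPM in SP-hold FW (-0.79, SE 0.11, FDR 0.0404). Both named and tested transcripts of its locus together had 16.5 to 23.2 CPM in SPLL SW and 35.8 to 42.6 CPM in SP-hold FW, a ratio of means of 0.516.

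gigyf2, whose product represses translation of bound mRNAs, had 15.9 to 16.5 CPM in SPLL SW and 24.2 to 29.2 CPM in SP-hold FW (-0.68, SE 0.10, FDR 0.0413). plak, junction plakoglobin of desmosomes and adherens junctions, had 16.3 to 18.8 CPM in SPLL SW and 23.7 to 26.3 CPM in SP-hold FW (-0.54, SE 0.08, FDR 0.0413). For these 5 transcripts every SP-hold SW library lay above every SPLL SW library, at 44.3 to 61.7 CPM for KMT2E, 57.6 to 68.9 CPM for khsrp, 25.2 to 32.9 CPM for ubap2b, 26.2 to 29.6 CPM for gigyf2 and 28.2 to 31.5 CPM for plak. SPLL SW over SP-hold SW gave -1.79 for KMT2E (FDR 0.00203), -1.07 for khsrp (FDR 0.00743), -1.26 for ubap2b (FDR 0.00262), -0.82 for gigyf2 (FDR 0.0103) and -0.79 for plak (FDR 0.00545). In all 9 named transcripts that fell, the SPLL SW mean was the lowest of the 4 groups, and in 6 the SP-hold SW mean was above that of SP-hold FW.

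Each of the 9 calls was lost without at least 1 library. si:dkey-5n18.1 lost it without SP-hold FW 2 or SPLL SW 1 (FDR up to 0.0573), and Dact3 without any 1 of SP-hold FW 2 and 3 and SPLL SW 1 and 4 (up to 0.0684). khsrp lost it without any 1 of the SP-hold FW libraries, SP-hold SW 2 and 3, and SPLL SW 1 and 4 (up to 0.109). tppp3 kept it without SP-hold FW 2, SP-hold SW 1 or 2, or either SPLL FW library (up to 0.109 otherwise). ubap2b kept it without SP-hold SW 1 or 2 (up to 0.114 otherwise), gigyf2 without either SPLL FW library (up to 0.128 otherwise), and KMT2E without SP-hold SW 1 or SPLL SW 2 (up to 0.133 otherwise). igfbp3 kept it only without SPLL SW 4 (up to 0.131 otherwise) and plak only without SPLL SW 3 (up to 0.133 otherwise).

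Beyond these genes, 19 transcripts with no name in the tables used passed, 9 higher and 10 lower. Of these, 12 had 0 reads in every library of 1 group, 6 in SP-hold FW and 6 in SPLL SW. Over all transcripts tested, 23 had 0 reads in all of SP-hold FW and reads in all of SPLL SW, and 27 the reverse. Testing required a median of 0.77 CPM over the 13 libraries, and more of these are SW than FW. A transcript at 0 in every SW library could thus not be tested, while a transcript at 0 in every FW library could. ENSSSAT00000194100 had 13.6, 12.7, 9.68 and 12.2 CPM in SPLL SW and 0 in SP-hold FW (FDR 0.00441). Its SPLL SW mean was 325 times a floor of 3 reads over the SP-hold FW group. Such a ratio describes the values and sets no bound on the fold change. The transcript had 2.35 and 2.8 CPM in SPLL FW and 3.53 to 9.33 CPM in SP-hold SW. ENSSSAT00000068644 had 3.05, 6.3, 6.51 and 4.94 CPM in SPLL SW and 8.11 to 11.4 CPM in SP-hold SW. It had 0 in both FW groups (SPLL SW mean 140 times the same floor, FDR 0.00948).

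Lower in the same way, ENSSSAT00000173586 had 0 in SPLL SW and 3.39, 5.73, 7.43 and 4.43 CPM in SP-hold FW (FDR 0.00441). Its SP-hold FW mean was 162 times a floor of 3 reads over the SPLL SW group. It was also read in SPLL FW, at 6.01 and 4.98 CPM, and in SP-hold SW, at 7.15 to 15.1 CPM. ENSSSAT00000021410 had 0 in SPLL SW and 1.96 to 2.48 CPM in SP-hold FW (SP-hold FW mean 69.4 times that floor, FDR 0.00441). These 4 calls held without any 1 of the 13 libraries. A read count of 0 for 1 transcript is not a count of 0 for its gene, since reads that fit several transcripts of a locus are assigned by estimation. Differences in transcript sequence between fish were not tested.

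Of 37 gene lists, 9 held at least 1 transcript past the threshold, 27 held none and 1, of dopaminergic markers, had no tested member. Apart from the glucocorticoid list, each of these lists held 1 to 3, all described above. Of 17 growth factors and binding proteins, egfl7 and Vegfb were higher and igfbp3 lower. Of 36 transcripts of polarity, actin and junctions, gsnb was higher and plak lower. The chromatin and transcription coregulators had 1 lower of 41 (KMT2E), the splicing factors 1 of 60 (khsrp), the synapse and secretory vesicle list 1 of 27 (si:dkey-5n18.1) and the cilium markers 1 of 12 (tppp3). The study's selection supplies every named call. In the order above it holds 10 of 17, 10 of 36, 32 of 41, 13 of 60, 13 of 27 and 5 of 12. Over all transcripts tested 0.0496% were higher and 0.041% lower, and in that selection 15 of 334 were higher and 9 lower. Within the cilium list most other members did not go the way of tppp3. spef1, of the axoneme, had 0.57 (FDR 0.196) and gas8, of the dynein regulatory complex, 0.56 (FDR 0.218), and 10 of the 12 had a log2 fold change above 0. So did 847 of the 1273 named transcripts tested, and 22124 of all 46383 tested. The cilium median was 0.30, and 0.17 without SPLL SW replicate 3.

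The chromatin list had a median of -0.30, with 12 of its 41 transcripts above 0, against 847 of the 1273 named transcripts tested. It draws 32 of the 41 from the study's selection, whose 334 transcripts had a median of -0.28, with 132 above 0. The median length of the chromatin list was 4644 bases, against 3228 over all transcripts tested. Its members next to the threshold were thrap3b (-0.57, FDR 0.0962), a factor of transcription and splicing, and the acetyltransferase EP300 (-1.77 in ENSSSAT00000182594, FDR 0.196). The other 2 EP300 transcripts had -0.57 (FDR 0.292) and -0.90 (FDR 0.366). Among ubiquitin ligases HUWE1, a large ligase with many substrates, had 48.0 to 55.3 CPM in SPLL SW and 68.0 to 73.3 CPM in SP-hold FW, without overlap (-0.43, SE 0.07, FDR 0.0630). The ubiquitin list draws 12 of its 23 transcripts from the study's selection. It had 0 of 23 past the threshold in edgeR, with 1 higher and 10 lower at an unadjusted p under 0.05. DESeq2 called 1 higher and 4 lower there, and voom 0 higher and 1 lower. JUP, a second plakoglobin gene, had -1.03 (FDR 0.0960).

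Ion and water transport, the work of a tissue that borders the cerebrospinal fluid, had 0 of 38 transcripts past the threshold in edgeR, with a median of 0.00. At an unadjusted p under 0.05, 7 were higher and 9 lower, DESeq2 called 1 higher and 3 lower, and voom 1 higher and 0 lower. WNK1, a kinase that governs chloride cotransporters, had 1.18 to 1.68 CPM in SPLL SW and 2.16 to 5.91 CPM in SP-hold FW (-1.56, SE 0.32, FDR 0.194). gja1b, a connexin of gap junctions, had 320 to 466 CPM in SPLL SW and 522 to 664 CPM in SP-hold FW in ENSSSAT00000231651 (-0.67, SE 0.15, FDR 0.209). The libraries did not overlap in these 2 transcripts, and they did in the other gja1b transcript, ENSSSAT00000238126 (-0.35, FDR 0.463). The members of lowest p on this list were slc22a18, which was higher (0.64, FDR 0.0669), and gjc4a.2, which was lower (-0.79, FDR 0.107). Their CPM are given under other observations.

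Sterol and lipid regulation had 0 of 11 past the threshold in edgeR, with a median of 0.52, and of 0.24 without SPLL SW replicate 3. At an unadjusted p under 0.05, 6 were higher and 0 lower, DESeq2 called 2 higher, and voom 0. ldlra, a receptor that takes up low density lipoprotein, had 15.4, 19.2, 7.37 and 16.0 CPM in SPLL SW, against 5.88, 7.28, 6.8 and 7.76 CPM in SP-hold FW in ENSSSAT00000123885 (1.07, SE 0.25, FDR 0.225). Replicate 3 was the SPLL SW library that overlapped SP-hold FW. The other ldlra transcript also overlapped (0.61, FDR 0.570). srebf2, the sterol regulator that the study named, had -0.09 (FDR 0.943).

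Lists of short, abundant transcripts leaned upward, and their medians moved with SPLL SW replicate 3. The median log2 fold change was 0.26 over 168 ribosomal protein transcripts and -0.17 without that library. It was 0.37 and -0.01 over 58 transcripts of the respiratory chain and ATP synthase, 0.37 and 0.15 over 26 of the proteasome, and 0.30 and 0.15 over 29 of the ER translocon and its chaperones. The median length of these lists was 731, 718, 1081 and 1142 bases, against 3228 over all transcripts tested, and the part of length and of this library in them was not tested. None of these transcripts passed in edgeR or voom. At an unadjusted p under 0.05, 4 ribosomal protein transcripts were higher and 1 lower, and 7, 7 and 9 were higher and 0 lower in the other 3 lists, of which DESeq2 called 1, 1 and 2. DESeq2 called 0 ribosomal protein transcripts. The medians of the glucocorticoid and clock lists were 1.95 and 0.41 without replicate 3. The study had selected 9 of 10 and 10 of 12 of their members for differing among its groups in these same libraries. Only 2 of 168, 1 of 58, 1 of 26 and 4 of 29 members of the lists above were so selected. How steady the medians were therefore cannot be compared between these lists.

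**Figure D5:**
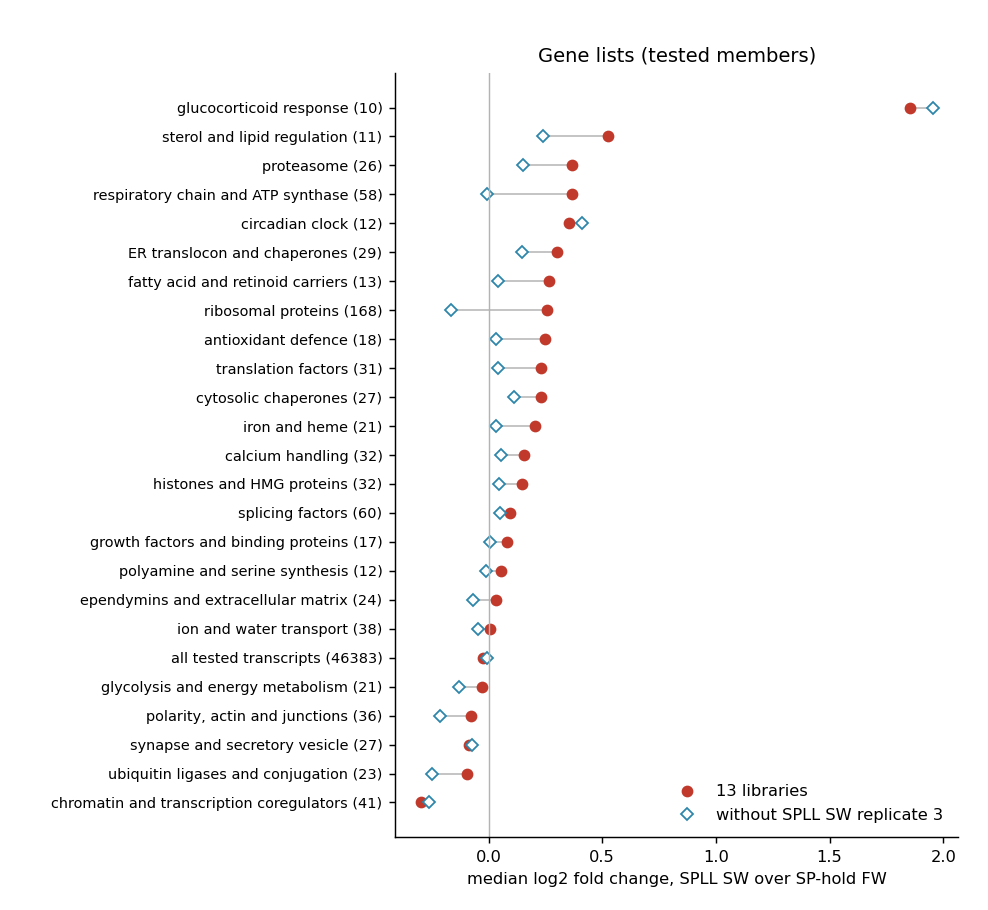
Median log2 fold change, SPLL SW over SP-hold FW, of each functional list with at least 9 tested members (number in brackets) and of all transcripts tested, with 13 libraries (circles) and without SPLL SW replicate 3 (diamonds). The glucocorticoid list stands at 1.85 and 1.95, and ribosomal proteins at 0.26 and -0.17.

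The study had sorted its 334 selected transcripts into 5 clusters by their pattern over the 4 groups, so what follows describes its choice and tests nothing. Of 64 transcripts in cluster 1, 13 were higher and 0 lower (median 0.44). Cluster 2 had 6 of 187 lower and 0 higher (median -0.54), and cluster 3 had 3 of 14 lower and 0 higher (median -1.16). Cluster 4 had 2 of 24 higher and 0 lower (median 0.40), gsnb and a transcript with no name. Cluster 5 had 0 of 45 past the threshold in edgeR, though all 45 were above 0, 35 of them without overlap of libraries, and 38 had an unadjusted p under 0.05. DESeq2 called 21 of them higher and voom 1.

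Genes tied to the known work of the SV did not pass. The epd transcripts, which encode the ependymins, secreted glycoproteins of the cerebrospinal fluid, held 5.68%, 7.59%, 6.85% and 9.02% of TPM in SPLL SW and 5.86%, 7.28%, 7.01% and 4.64% in SP-hold FW. The libraries overlapped, and the log2 fold changes of the 3 transcripts were 0.36, 0.18 and -0.45 (FDR 0.855 or more). Parvalbumin, prvt, a calcium buffer, had 2800 to 5680 CPM in SPLL SW and 2800 to 3660 CPM in SP-hold FW for ENSSSAT00000091084 (0.21, FDR 0.951), and its other transcript also overlapped (0.49, FDR 0.809). ppp1r1b, an inhibitor of protein phosphatase 1 regulated by dopamine, had 72.2 to 103 CPM in SPLL SW and 78.8 to 89.4 CPM in SP-hold FW (-0.01, FDR 1.0).

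Of the deiodinases, which activate or inactivate thyroid hormone, dio2 stood at 0.182 to 1.13 CPM in SPLL SW and 0.32 to 0.814 CPM in SP-hold FW (0.48, SE 0.59, FDR 0.962). Dio3 had 3.27, 2.68, 6.94 and 3.33 CPM in SPLL SW, against 2.11, 2.33, 2.16 and 0.792 CPM in SP-hold FW (1.13, SE 0.40, FDR 0.436). The groups did not overlap, and Dio3 did not pass. The opsin family transcripts opn8a (-0.55), opn8b (-0.70), Tmtopsin3a (-0.13) and 2 rgrb transcripts (-0.16 and 0.16) had an FDR of 0.664 or more. On the list of opsins, deiodinases and gpha2, 0 of 7 tested transcripts passed in edgeR, DESeq2 and voom, and 1, Dio3, was higher at an unadjusted p under 0.05. The list has 9 members, and only these 7 reached the filter. The tested ones held 1 dio2 transcript and none of gpha2.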

How the data were processed

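SVs were sequenced as stranded mRNA libraries with single-end reads. The authors trimmed reads with Cutadapt, left out libraries of low read number, and deposited estimated counts and TPM for 146780 transcripts of Ssal_v3.1, quantified by Salmon 1.1.0 with its GC bias option. Reads that fit several transcripts are shared out by its model, so single transcripts of a locus are less certain than their sum. Groups were taken from sample labels, and ages, light and salinity from the study's methods.

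Counts were rounded and tested in edgeR 4.0.16 (glmQLFit, glmQLFTest, TMM, 4 group means, 9 residual degrees of freedom) where the median over 13 libraries reached 0.77 CPM, the study's filter. An FDR under 0.05 was a call. SE was taken from the fold change and the F statistic. DESeq2 1.42.0 and voom with sample weights (limma 3.58.1, R 4.3.3) were among the alternatives. On a single set of counts, simulated from edgeR's own estimates of the spread, DESeq2 called more unchanged transcripts than edgeR did. That setting follows the edgeR model and cannot decide between the tests. Shares are of the deposited TPM, without a test.

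Names (1275 transcripts, 409 only by a zebrafish or mouse match) come from the study's supplementary tables, which cover abundant transcripts and those it selected. The comparison, lists and tests were chosen with earlier results of these data known. Transcripts named in the text were drawn from a larger set, not all of which is described. It held the 15 named transcripts of lowest p past the threshold in each direction and the 5 of largest change (mean of at least 5 CPM, no overlap). It also held genes of the study's Results, up to 4 members of each list by p, other transcripts of the same symbols, and 2 transcripts with no name in each direction. foxo1a and pik3ip1 were added after their values were seen.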

Additional observations from a re-analysis of the deposited data

Results flagged for a closer look

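In groups of 4 libraries, a library was singled out where its gap to the nearest other took up most of the range of its group, beyond the critical value of Dixon's test, which chance gives in about 1 in 20 groups. The rule ran over many transcripts, so some of the values below would be singled out by chance alone. In SPLL SW all such values came from replicate 3. Reads fell on 54196 transcripts there, and on 68158 to 69054 in replicates 1, 2 and 4. It had 149 CPM of the ribosomal protein rps21 (48.8 to 59.5 in the others), 130 CPM of the chromatin protein hmgb1b (99.7 to 104), 81.7 CPM of psph, of serine synthesis (57.1 to 60.9), 518 CPM of the fatty acid carrier fabp7b (338 to 366), and 6.94 CPM of Dio3 (2.68 to 3.33).

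In SP-hold FW the values were spread over 3 libraries. Replicate 1 had 24.4 CPM of ubap2b (19.8 to 20.2 in the others), 3120 CPM of the prvt transcript ENSSSAT00000001133 (3870 to 3970) and 38.0 CPM of the rgrb transcript ENSSSAT00000200844 (43.6 to 44.5). Replicate 2 had 5.21 CPM of the tefb copy on chromosome 3 (9.15 to 9.87) and 11.6 CPM of the splicing factor srsf2a (16.3 to 17.1). Replicate 4 had 10.2 CPM of igfbp3 (5.18 to 5.84) and 0.792 CPM of Dio3 (2.11 to 2.33).

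For 5 of the 23 named transcripts the effect of the SW transfer differed between SPLL and SP-hold fish by the edgeR test of the interaction. This was taken as the transfer effect in SPLL minus that in SP-hold (105 of 46383 transcripts passed, 0.226%). It was -4.0 for Fkbp5 ENSSSAT00000150909 (FDR 0.0292), -1.75 for Dact3 (FDR 0.0354), 0.73 for Vegfb (FDR 0.0408), -1.13 for plak (FDR 0.00723) and -1.51 for KMT2E (FDR 0.0415). With 2 libraries of SPLL FW, this test borrows its error from all 4 groups. The transfer also took SP-hold fish from short days into constant light, in which SPLL fish already were. Salinity and light therefore cannot be told apart in this difference. The study had selected all 23 for differing among these groups, so 5 of 23 cannot be set against 0.226%.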

How the results depend on the processing

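No called transcript that is named here changed direction under any alternative run. The 42 calls (23 higher, 19 lower) became 35 with DESeq2's size factors, 42 with upper-quartile factors, and 38 with the newer quasi-likelihood fit of edgeR, which was added after seeing the data because the planned older fit is the default of the installed version and gave the same 42. Voom with sample weights gave 58, of which 34 were lower. DESeq2 gave 979 (461 higher, 518 lower), filterByExpr 27 (10 lower) and no filter on low counts 13 (7 higher, 6 lower). With the 8 libraries alone edgeR gave 0 (1675 higher and 1628 lower at an unadjusted p under 0.05), and the lowest FDR among the 23 named transcripts was 0.0813. Adding a replicate block to the edgeR fit also gave 0, higher or lower (1820 higher and 2036 lower at an unadjusted p under 0.05). Same-numbered libraries of SPLL SW and SP-hold FW deviated from their group means with correlations of -0.003 to 0.063. Differently numbered ones had -0.055 to 0.047. Correlations this small over all tested transcripts cannot show whether the numbers pair the samples. Whether the block is the better fit was not tested.

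The 6 glucocorticoid calls were 1 with no filter and 0 with the 8 libraries alone or the block. The 13 of cluster 1 were 32 with DESeq2, 8 with filterByExpr, 1 with no filter, and 0 with the 8 libraries or the block. The 6 of cluster 2 were 81 with DESeq2, 2 with DESeq2's size factors, 1 with filterByExpr, and 0 with no filter, the 8 libraries or the block. The 3 of cluster 3 were 9 with DESeq2, 1 with no filter, and 0 with the 8 libraries or the block.

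With each of the 13 libraries left out in turn, calls ranged from 22 to 72 (12 to 28 higher, 9 to 54 lower). The lowest total, 22, was without SP-hold FW replicate 2, the highest, 72, without SPLL SW replicate 2, and 58 passed without SPLL SW replicate 3. Calls were 1 to 7 for the glucocorticoid list, 1 to 15 for cluster 1, 0 to 7 for cluster 2 and 0 to 3 for cluster 3. The erythrocyte share, higher by 3.21 percentage points of TPM in SPLL SW, was higher by 1.48 as a share of estimated reads. With 4 libraries a side, transcripts that missed the threshold may still differ.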

Other observations

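Named transcripts past the threshold that lie close together were looked for after their values were seen. si:ch73-141c7.1 (chromosome 3, 61152695 to 61157765), which rose, and si:dkey-5n18.1 (61279710 to 61356347), which fell, are 122 kb apart. The next nearest pair is klf9, which rose, and ubap2b, which fell, 1070 kb apart on chromosome 24. Named transcripts are a small part of those tested, and whether such distances differ from those of other genes was not tested.

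Of the named transcripts that missed the threshold without overlap of libraries, 4 are given here. Among the 1273 named transcripts tested, 146 were higher and 120 lower without overlap, the 23 past the threshold included. Over all 46383 tested, 3349 did not overlap (7.22%). slc22a18, a transporter of organic ions, had 39.9 to 45.4 CPM in SPLL SW and 25.3 to 29.8 CPM in SP-hold FW (log2 fold change 0.64, edgeR FDR 0.0669). sdha, the flavoprotein of succinate dehydrogenase, had 52.5 to 65.7 CPM in SPLL SW and 31.4 to 44.3 CPM in SP-hold FW (0.66, edgeR FDR 0.0981). The gap junction gene gjc4a.2 had 87.3 to 121 CPM in SPLL SW and 158 to 205 CPM in SP-hold FW (-0.79, edgeR FDR 0.107). fth1a, of ferritin, the iron store, had 45.3 to 54.8 CPM in SPLL SW and 12.9 to 30.8 CPM in SP-hold FW in ENSSSAT00000080785 (1.31, edgeR FDR 0.196). The other 3 fth1a transcripts had log2 fold changes of 0.21 to 1.14 (edgeR FDR 0.475 or more), and 2 of them overlapped between the groups.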
